A study of Mus musculus with 4 samples.

Results

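The genes of cholesterol synthesis, trafficking, storage and efflux were followed in liver RNA of mice lacking Nrg4, a hormone-like ligand of ErbB receptors that is released by fat tissue. A list of 28 genes was used, and a gene was measured where the platform annotation paired a probe set with its symbol alone. This gave 24 genes of 22180 on the array. Acat2, Soat1 and Soat2 were matched to no such probe set, and that of Idi1 carried several symbols, so these 4 were not analysed here. As a result neither cholesterol ester-forming enzyme of the list was measured.

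The comparison was between Nrg4 KO and WT males, all of which ate a NASH diet, a feed that produces non-alcoholic steatohepatitis. It began at 3 months of age and lasted 20 weeks, and the animals were killed fed. Each genotype had 2 arrays (Affymetrix Mouse Gene ST) and each array 1 pool of hepatic RNA. How many animals made a pool, which part of Nrg4 was disrupted and the strain are not stated by the labels. Values are log2 expression as deposited, with an unknown zero point, so a gene can be compared between pools but not with another gene. Nrg4 stood at 0.93 in both KO pools, against 2.54 and 2.30 in the WT pools, a difference of -1.49 ± 0.20 (SE, n = 2 each; limma, adjusted p = 0.182 over all 22180 genes).

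Cholesterol is built from acetyl-CoA through mevalonate to farnesyl diphosphate, then through squalene and lanosterol. The transcription factor SREBP2, encoded by Srebf2, turns these enzymes on together when membranes of the endoplasmic reticulum are poor in cholesterol. Its escort Scap carries it to the Golgi for cleavage, and the Insig proteins hold that escort back when sterols are plentiful. Cholesterol arriving in lysosomes leaves through Npc1 and Npc2, and surplus is esterified or exported through Abca1. In liver this balance sets how much cholesterol is stored, secreted or passed to bile.

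Upstream sequences are given for 3 of the 4 genes that lay lower in KO at an unadjusted limma p under 0.05. That of Hmgcs1, the gene that lay highest above WT, is added. The sequences were searched for a core through which SREBP2 acts and for boxes of its partners, NF-Y and Sp1. They are the 250 bases before the annotated start in RefSeq (GRCm38.p6), read along the gene's strand, and each of the genes has a single window there. They lie at chr5:114444019-114444268 (plus strand), chrX:8193513-8193762 (minus strand), chr5:28071162-28071411 (plus strand) and chr13:119690101-119690350 (plus strand). Capitals mark matches on either strand to the sterol regulatory core TCACNCCAC, the NF-Y box CCAAT or the Sp1 box GGGCGG. No matches overlap in these 4 windows.
Mvk: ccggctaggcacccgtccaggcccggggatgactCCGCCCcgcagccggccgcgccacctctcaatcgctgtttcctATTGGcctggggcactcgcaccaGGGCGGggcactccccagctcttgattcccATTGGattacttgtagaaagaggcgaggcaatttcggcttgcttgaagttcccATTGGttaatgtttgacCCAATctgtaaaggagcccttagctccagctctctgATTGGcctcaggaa
Ebp: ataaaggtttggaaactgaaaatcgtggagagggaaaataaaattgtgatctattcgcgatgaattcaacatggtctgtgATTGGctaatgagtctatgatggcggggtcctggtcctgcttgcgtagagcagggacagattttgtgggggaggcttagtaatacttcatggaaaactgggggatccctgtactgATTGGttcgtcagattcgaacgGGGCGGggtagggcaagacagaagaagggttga
Insig1: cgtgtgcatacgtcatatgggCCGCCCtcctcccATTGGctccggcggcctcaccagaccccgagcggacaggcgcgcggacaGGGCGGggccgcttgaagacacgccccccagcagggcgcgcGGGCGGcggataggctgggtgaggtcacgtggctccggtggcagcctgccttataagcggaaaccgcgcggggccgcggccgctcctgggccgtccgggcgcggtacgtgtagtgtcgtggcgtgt
Hmgcs1: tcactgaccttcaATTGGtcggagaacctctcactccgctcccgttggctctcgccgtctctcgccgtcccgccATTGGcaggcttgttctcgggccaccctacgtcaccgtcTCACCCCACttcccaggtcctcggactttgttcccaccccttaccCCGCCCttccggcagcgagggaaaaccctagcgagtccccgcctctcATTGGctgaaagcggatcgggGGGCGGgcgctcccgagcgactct
Mvk held 5 CCAAT boxes and Ebp 2, while Insig1 held 1 with 3 GGGCGG boxes. The sterol core matched once, in Hmgcs1, starting 137 bases before its start. Pmvk, the other gene lower at an unadjusted limma p under 0.05, is not shown. It matched CCAAT but neither GGGCGG nor the sterol core. RefSeq windows were found for 19 of the 24 genes, and 4 of these had more than 1 window. A CCAAT box stood in a window of 17 of the 19 genes (89.5%), against 39.7% of the 9803 tested genes with a window and 33.8% of all 32851 windows. GGGCGG was found for 18 of the 19 (94.7%), against 61.1% of the tested genes and 32.7% of all windows. The sterol core was found for 1 of the 19 (5.26%), against 1.31% of the tested genes and 1.05% of all windows. CCAAT was found for 8 of 9 matched genes that lay lower in KO, for 4 of 5 that lay higher and for 5 of 5 whose pools overlapped. A match is a run of letters, and whether any is bound was not measured.

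No cholesterol gene passed the test between KO and WT (limma, Benjamini-Hochberg adjustment over 12458 tested genes, adjusted p from 0.364 to 0.995). The same test called 6 of all tested genes, or 0.0482%. All 24 genes passed the filter on low values. Of the 24 genes, 15 had a KO mean below WT and 9 above, and the median difference was -0.15 on the log2 scale, beside 0.01 over all tested genes. In 11 genes (45.8%) both KO pools lay below both WT pools, beside 19.5% of all tested genes. In 5 genes (20.8%) both KO pools lay above both WT pools, beside 22.2%. An unadjusted p under 0.05 was reached by 4 genes on the lower side (16.7%, beside 3.92% of all tested genes) and by 0 on the higher side (beside 6.37%). These 4 were Ebp, Pmvk, Insig1 and Mvk. With 2 pools against 2, an exact permutation test has no way to reach 0.05, and so few arrays limit the precision throughout. When the variance was allowed to follow intensity, 0 of the 24 genes were called by limma, beside 1.09% of all tested genes, and the unadjusted p of Hmgcs1 and Insig2, on the higher side, was 0.00659 and 0.0465. In whole liver, fewer cells of a type and less RNA per cell cannot be told apart.

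**Figure D1:**
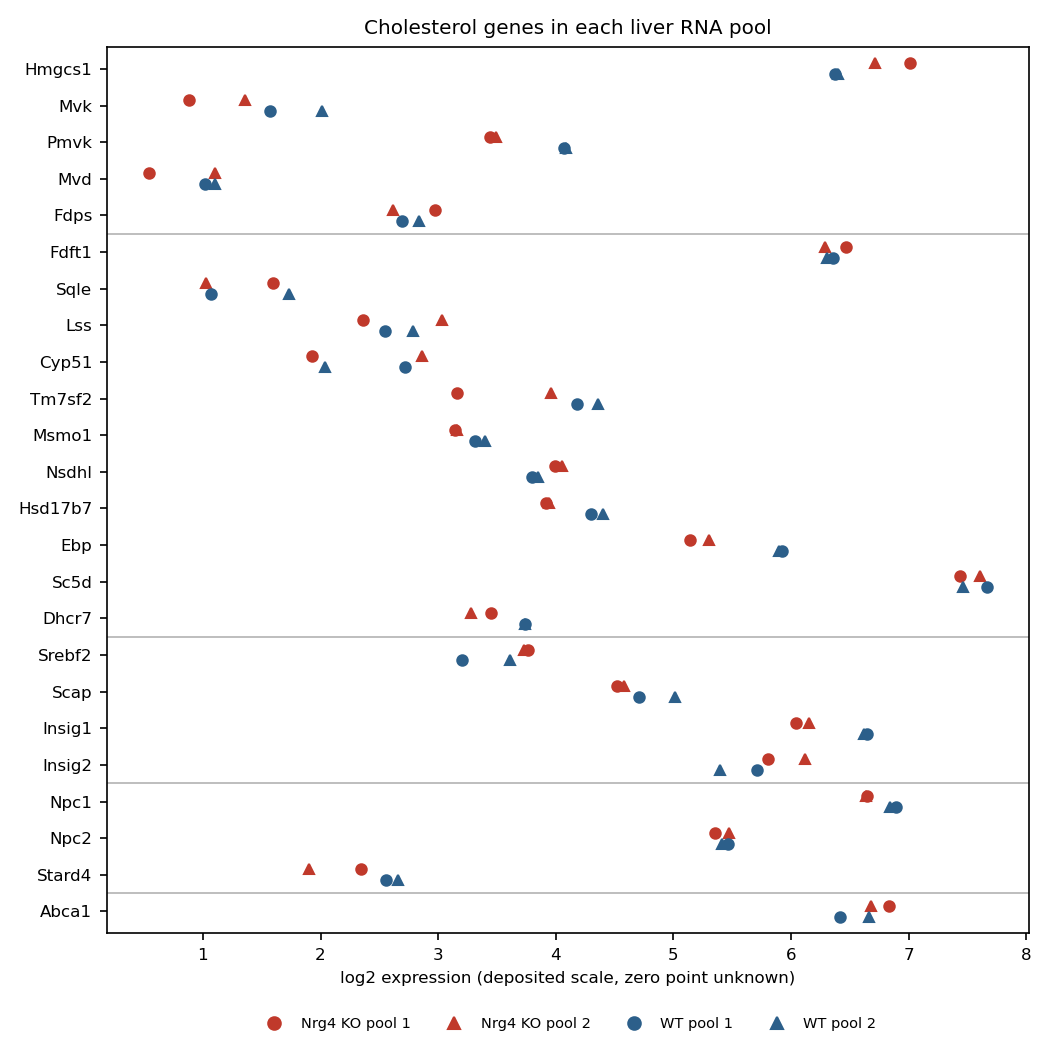
Log2 expression of the 24 cholesterol genes in each pool (x axis; deposited scale, zero point unknown), with KO pools in red above WT pools in blue and lines between roles: early synthesis, late synthesis, SREBP2 control, trafficking and efflux. KO and WT points stand apart without overlap in 16 genes, 11 with KO to the left and 5 with KO to the right.

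The early enzymes, which lead from acetyl-CoA units to farnesyl diphosphate, split at the top of the pathway. Hmgcs1, the synthase that makes HMG-CoA, had log2 levels of 7.01 and 6.71 in the KO pools, against 6.37 and 6.40 in the WT pools. Both KO pools were above both WT pools, by 0.48 ± 0.21 on average (SE, n = 2 each; limma, adjusted p = 0.515), or 1.39-fold. The kinases that follow mevalonate lay lower in KO. Pmvk, which adds the second phosphate, had 3.44 and 3.49 in KO and 4.07 and 4.09 in WT. The KO pools were within 0.05 of each other and both below WT, with a difference of -0.62 ± 0.19 (limma, adjusted p = 0.383). Mvk, which adds the first phosphate, had 0.88 and 1.36 in KO and 1.57 and 2.01 in WT. Its KO mean was only 0.58 over the table median, where differences may be compressed, and the difference was -0.67 ± 0.27 (limma, adjusted p = 0.484), or -0.43 without KO pool 1. Mvd, the decarboxylase that ends this stretch, was also near the table median and its pools overlapped, with 0.54 and 1.10 in KO and 1.02 and 1.10 in WT. Fdps, which joins the isoprene units, had 2.97 and 2.62 in KO and 2.69 and 2.84 in WT. These pools overlapped too, and the 95% interval of the difference, -0.51 to 0.57, leaves room for a change in either direction.

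At the start of the sterol branch the KO and WT pools overlapped. Fdft1, the squalene synthase, had 6.47 and 6.29 in KO and 6.36 and 6.31 in WT, a difference of 0.04 ± 0.19 with a 95% interval of -0.44 to 0.53. Sqle, the squalene epoxidase, had 1.60 and 1.03 in KO and 1.07 and 1.73 in WT. Lss, which closes the rings to lanosterol, had 2.36 and 3.03 in KO and 2.55 and 2.79 in WT. In Sqle and Lss the pools of a genotype were further apart than the genotype means. Cyp51, the lanosterol demethylase, showed the widest gap between KO pools of any of the 24 genes, with 1.93 and 2.86 in KO and 2.72 and 2.04 in WT. Its difference was 0.01 ± 0.39, with a 95% interval of -0.95 to 0.98.

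Of the 11 enzymes from Fdft1 to Dhcr7, 5 lay lower in KO without overlap (45.5%, beside 19.5% of all tested genes). Another 5 overlapped, and 1 lay higher (9.09%, beside 22.2%). Ebp, the sterol isomerase also known as emopamil-binding protein, had 5.14 and 5.30 in KO and 5.92 and 5.90 in WT. Its pools were tight in both genotypes and 1.61-fold lower in KO, a difference of -0.69 ± 0.19 (SE, n = 2 each; limma, adjusted p = 0.364). With a variance that follows intensity, the adjusted p of Ebp was 0.0792. Tm7sf2, a sterol reductase of the endoplasmic reticulum membrane, had 3.16 and 3.96 in KO and 4.18 and 4.36 in WT. Its difference of -0.71 ± 0.31 was the lowest among the 24 genes, but it was -1.11 without KO pool 2 and -0.31 without KO pool 1. Hsd17b7, a ketoreductase of the demethylation complex, had 3.92 and 3.94 in KO and 4.30 and 4.40 in WT. Dhcr7, which carries out the last reduction of one route to cholesterol, had 3.45 and 3.28 in KO and 3.74 in both WT pools. Both were below WT in each KO pool, by -0.42 ± 0.19 for Hsd17b7 and -0.38 ± 0.19 for Dhcr7. Msmo1, the methylsterol oxidase, was lower by a smaller step, with 3.14 and 3.16 in KO and 3.31 and 3.40 in WT. Nsdhl, its partner in removing the methyl groups, was the 1 late enzyme with both KO pools above WT, at 3.99 and 4.05 in KO and 3.80 and 3.85 in WT. Sc5d, the desaturase that follows Ebp, overlapped, at 7.44 and 7.61 in KO and 7.67 and 7.46 in WT. Among the 16 measured synthesis enzymes 7 were lower without overlap (43.8%, beside 19.5% of all tested genes), 2 higher (12.5%, beside 22.2%) and 7 overlapping, with a median difference of -0.15.

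**Figure D2:**
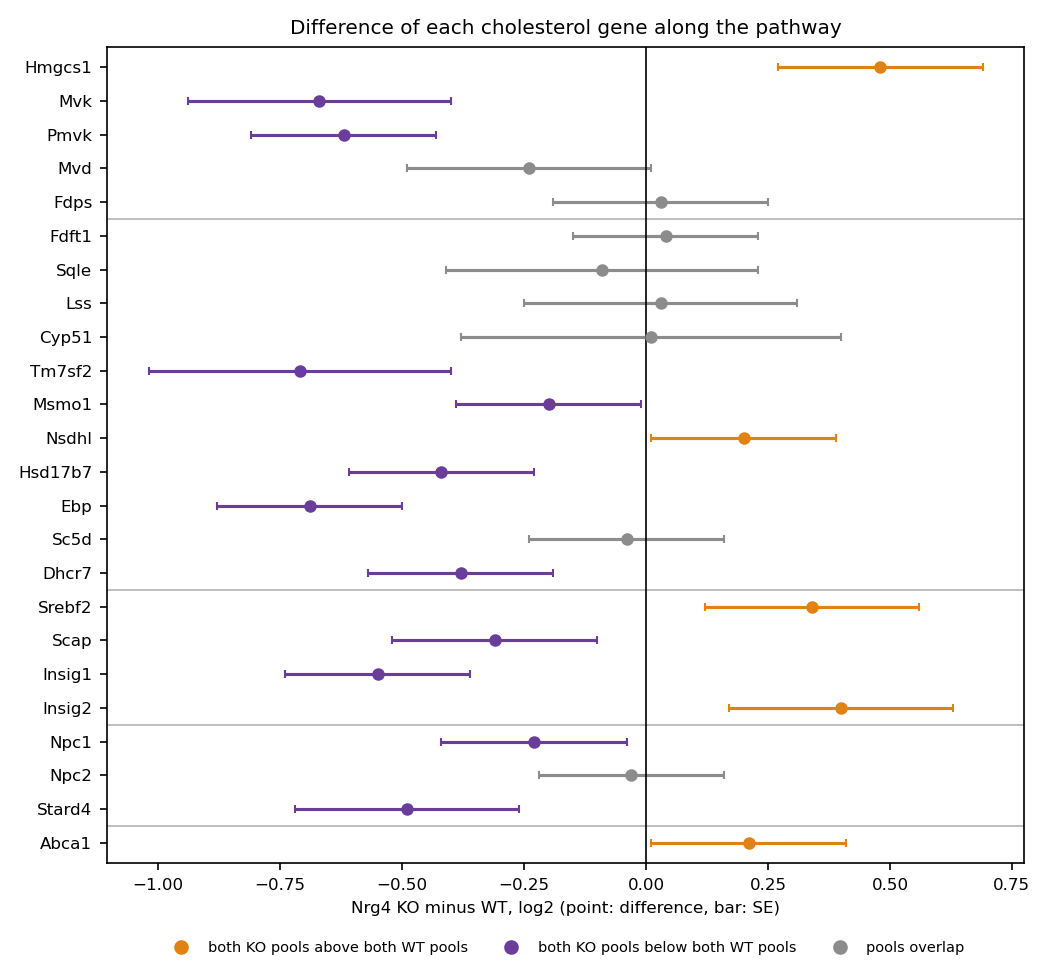
Difference in log2 expression, Nrg4 KO minus WT, for the 24 cholesterol genes in pathway order (points, with bars of 1 SE from limma), coloured by whether the pools of the genotypes overlap. Differences run from -0.71 (Tm7sf2) to 0.48 (Hmgcs1), and genes on both sides of 0 occur in synthesis and in SREBP2 control.

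The control genes of SREBP2 were evenly divided, and in none of the 4 did the pools overlap, beside 41.7% of all tested genes without overlap. Insig1, the retention protein that SREBP2 itself induces, had 6.04 and 6.15 in KO and 6.65 and 6.62 in WT. Both KO pools were below both WT pools, with a difference of -0.55 ± 0.19 (SE, n = 2 each; limma, adjusted p = 0.427), or 1.46-fold lower. Insig2, the related retention protein that is not induced in that way, lay on the other side, with 5.80 and 6.12 in KO and 5.71 and 5.40 in WT. The gap between its KO and WT pools was narrow, and the difference was 0.40 ± 0.23 (limma, adjusted p = 0.619), or 0.24 without KO pool 2 and 0.25 without WT pool 2. Srebf2 had 3.76 and 3.73 in KO and 3.20 and 3.61 in WT. That difference of 0.34 ± 0.22 was 0.13 without WT pool 1 and 0.54 without WT pool 2, since the WT pools were further apart than the KO pools. Scap had 4.52 and 4.58 in KO and 4.71 and 5.01 in WT, a difference of -0.31 ± 0.21, or -0.15 without WT pool 2. A second, dim probe set of Scap, with 0.24 and 0.05 in KO and 0.35 and 0.36 in WT, also lay lower in both KO pools.

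Of the 3 carriers of cholesterol within the cell, 2 lay below WT in both KO pools, as did 19.5% of all tested genes, and 1 overlapped. Stard4, a soluble sterol carrier, had 2.34 and 1.90 in KO and 2.56 and 2.66 in WT, a difference of -0.49 ± 0.23 (SE, n = 2 each; limma, adjusted p = 0.554), or -0.27 without KO pool 2. Npc1, the membrane protein that passes cholesterol out of the lysosome, had 6.65 and 6.64 in KO and 6.89 and 6.84 in WT. Its pools agreed closely within each genotype, and the difference of -0.23 ± 0.19 was small. A second probe set of Npc1 was dim and differed by 0.01, and the mean of both sets differed by -0.11. Npc2, the soluble partner that hands cholesterol to Npc1, overlapped at 5.35 and 5.47 in KO and 5.46 and 5.41 in WT. Abca1, the exporter that loads cholesterol onto apolipoprotein A-I, had 6.83 and 6.68 in KO and 6.42 and 6.66 in WT. KO pool 2 lay just above WT pool 2, and the difference was 0.21 ± 0.20 (limma, adjusted p = 0.779). Leaving out KO pool 1 gave 0.13, leaving out WT pool 1 gave 0.09 and leaving out WT pool 2 gave 0.33.

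The pools of each genotype can be set against each other gene by gene. The median gap between the KO pools was 0.17 for the 24 genes, beside 0.26 for all tested genes, and between the WT pools it was 0.10, beside 0.23. Gaps above 0.5 occurred between the KO pools in 5 genes (Mvd, Sqle, Lss, Cyp51 and Tm7sf2) and between the WT pools in 2 (Sqle and Cyp51). These are 20.8% and 8.33% of the 24 genes, beside 22.6% and 20.3% of all tested genes.

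**Figure D3:**
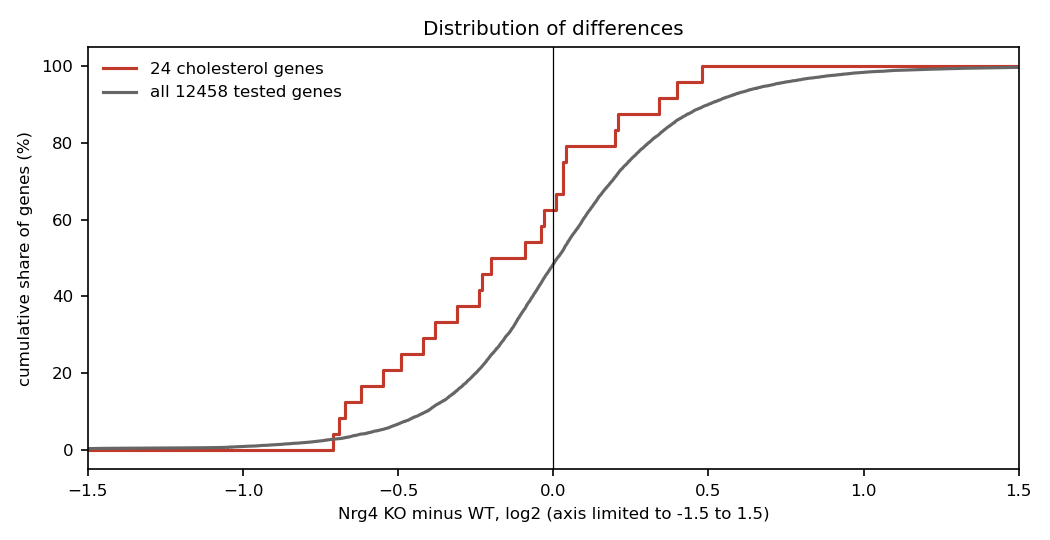
Cumulative share of genes (y axis, %) by difference in log2 expression, Nrg4 KO minus WT (x axis), for the 24 cholesterol genes in red and all 12458 tested genes in grey. The red curve runs left of the grey one over most of the range, with medians of -0.15 and 0.01, and has no gene below -0.71 or above 0.48.

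Other genes of cholesterol handling were read from a list of 38, of which 30 were measured, all of them above the filter. None passed the test (limma, adjusted p from 0.391 to 0.998). Of the 30, 9 lay lower without overlap (30.0%, beside 19.5% of all tested genes) and 5 lay higher (16.7%, beside 22.2%), with a median difference of 0.02. Abcg8 and Abcg5 form the transporter that moves sterols into bile. Abcg8 had 6.60 and 6.79 in KO and 7.32 and 7.34 in WT, a difference of -0.63 ± 0.19 (SE, n = 2 each; limma, adjusted p = 0.391). With a variance that follows intensity Abcg8 was called (limma, adjusted p = 0.0437), beside 0.698% of all tested genes called lower in the same fit. Abcg5 had 6.48 and 6.63 in KO and 7.0 and 7.12 in WT, a difference of -0.51 ± 0.20. The RNA of both genes was thus below WT in each KO pool. Lcat, the plasma enzyme that esterifies cholesterol on lipoproteins, had 7.61 and 7.76 in KO and 8.14 and 8.26 in WT, a difference of -0.51 ± 0.19. Erlin1, a sterol-sensing protein of the endoplasmic reticulum, had 4.42 and 4.50 in KO and 5.06 and 4.94 in WT, a difference of -0.54 ± 0.19. It was the 1 gene lower without overlap (14.3%, beside 19.5%) among 7 measured genes of SREBP control on that list. Mbtps2 was the 1 gene higher (14.3%, beside 22.2%), and 5 overlapped. Mbtps2, chosen after its values were seen, had 3.16 and 3.27 in KO and 2.71 and 2.75 in WT, a difference of 0.48 ± 0.19 (limma, adjusted p = 0.481).

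Of 8 genes of lipoprotein uptake on that list, 5 were measured. Without overlap, 2 lay higher (40%, beside 22.2% of all tested genes) and 1 lower (20%, beside 19.5%), and 2 overlapped. Vldlr, a receptor for triglyceride-rich lipoproteins, had 3.74 and 2.81 in KO and 2.78 and 2.14 in WT. KO pool 2 was barely above WT pool 1, and the difference was 0.81 ± 0.38 (SE, n = 2 each; limma, adjusted p = 0.557), or 0.35 without KO pool 1, 1.28 without KO pool 2 and 0.49 without WT pool 2. Scarb1, the receptor for high-density lipoprotein, was chosen after its values were seen and had 7.20 and 7.30 in KO and 6.79 and 6.97 in WT. That is a difference of 0.37 ± 0.20 (limma, adjusted p = 0.594). Lrp1, a large receptor for lipoprotein remnants also chosen after its values were seen, lay slightly lower, with 7.67 and 7.60 in KO and 7.72 and 7.75 in WT.

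**Figure D4:**
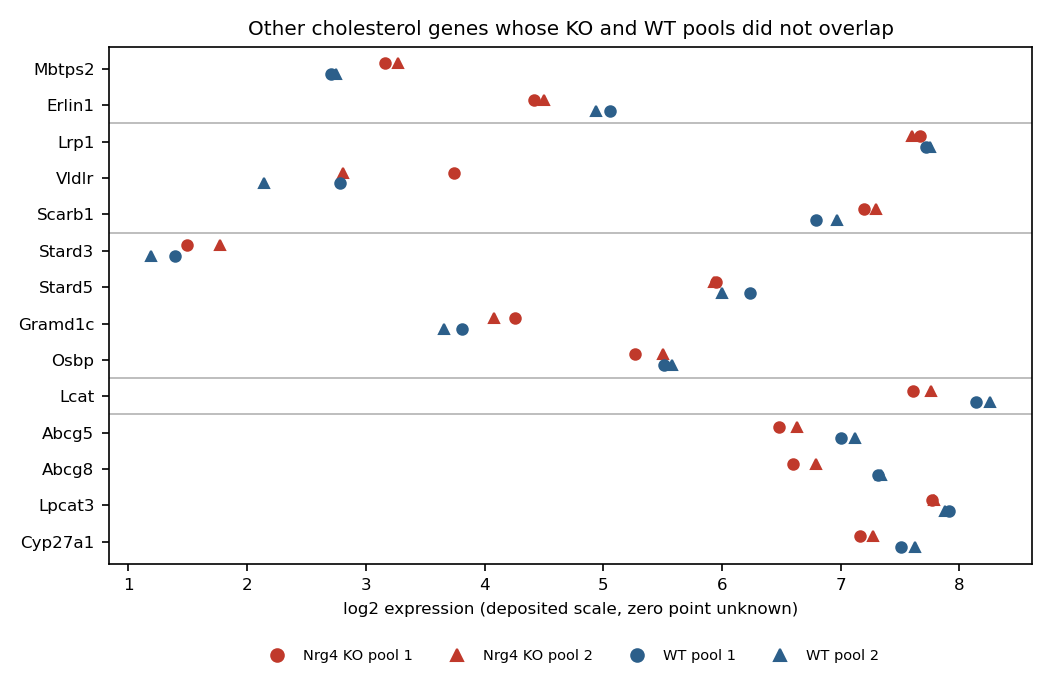
Log2 expression in each pool (x axis; deposited scale, zero point unknown) of the 14 other cholesterol genes whose KO pools (red, above) and WT pools (blue, below) did not overlap, with lines between groups of the list. KO lies to the left in 9 genes and to the right in 5.

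Markers of liver cell types were read in the same pools. Of 10 hepatocyte markers 9 were measured, among them Alb at 10.7 and 10.8 in KO and 10.9 in both WT pools, and their mean log2 level was 9.19 and 9.23 in KO and 9.30 and 9.22 in WT. The widest difference among them was that of Cps1, with 9.39 and 9.47 in KO and 9.79 and 9.85 in WT. It was -0.39 ± 0.19 (limma, adjusted p = 0.564, or 0.0427 when the variance follows intensity). All 13 macrophage markers were measured, 10 of them with a higher mean in KO and 3 with a lower one, and their mean level was 4.26 and 4.22 in KO and 3.90 and 4.09 in WT. The widest difference on that list ran against its mean. Marco, a scavenger receptor of resident macrophages, had 0.76 and 0.66 in KO and 2.63 and 3.53 in WT, a difference of -2.37 ± 0.33 (SE, n = 2 each; limma, adjusted p = 0.181, or 0.0181 when the variance follows intensity). Of 7 cholangiocyte markers 6 were measured, with a mean of 2.45 and 2.86 in KO and 2.04 and 1.64 in WT, although the KO and WT means of the duct keratin Krt19 were just 0.19 and 0.24 over the table median. Krt7, Epcam, Cdh1 and Cd24a lay higher without overlap (66.7%, beside 22.2% of all tested genes), and Krt19 and Sox9 overlapped. Of these, Krt7 was also near the table median, with a KO mean 0.36 over it and a WT mean at -0.04 from it. Epcam was 1.31 over it in KO and 0.6 over it in WT. The mean of 8 stellate cell markers was 4.53 and 4.70 in KO and 4.30 and 4.10 in WT. On this list Pdgfrb, Lum and Col1a1 lay higher without overlap (37.5%, beside 22.2%), while Lrat, Reln, Des, Colec11 and Dcn overlapped. The mean of the hepatocyte list overlapped between genotypes. Of its markers 3 lay lower without overlap (33.3%, beside 19.5% of all tested genes) and 1 higher (11.1%, beside 22.2%). The means of the other 3 lists were higher in both KO pools. The part of these cell types in the differences of the cholesterol genes was not tested.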

How the data were processed

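Liver RNA pools of Nrg4 KO and WT mice were measured, with 2 arrays each. The deposited values are log2 expression of 41345 probe sets. Per the submitters' processing notes, the authors used oligo, RMA and limma, and no version, order of steps, genome build or annotation is stated there. The labels' protocols give 400 ng of RNA as input, labelled with biotin. Array medians were 0.64 and 0.53 in KO and 0.52 and 0.56 in WT. Batches by scan or slide were not analysed here.

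From these values, probe sets paired with 1 symbol (23521) were kept, leaving aside 1814 with several symbols and 16010 with none. The brightest probe set by mean stood for a gene, and was tested where that mean reached the table median (0.54). The KO against WT test was lmFit and eBayes of limma 3.58.1 under R 4.3.3 (2 residual and 3.67 prior degrees of freedom), called at an adjusted p under 0.05, and the procedure was tested on simulated data. P-values and SEs are those of limma, which combines a gene's spread between pools with the spread over all genes of the fit. They do not give the spread of that gene's pools alone. Alternatives were quantile normalization, median centring, other filters, variance models (statmod 1.5.0), probe set means, a replicate block and leaving out each pool.

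The members and lists were chosen with earlier results of these data known. Named were all measured members, Nrg4 and the other cholesterol genes whose pools did not overlap and that differed by at least 0.5. Scarb1, Lrp1 and Mbtps2 were named as well, after their values were seen. Markers of T cells, adipocytes, endothelium and acinar cells were read as well; their median differences were -0.02, -0.03, 0.01 and 0.29.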

Additional observations from a re-analysis of the deposited data

How the results depend on the processing

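With all pools, 0 of the cholesterol genes were called by limma under any of the settings tried. An unadjusted limma p under 0.05 was reached by 3 to 6 of them, and 3 or 4 of these lay lower in KO. In the main fit these were 4 genes on the lower side (16.7%, beside 3.92% of all tested genes) and 0 on the higher side (beside 6.37%). With a robust variance they were 3, all lower, beside 1246 of 12458 tested genes, 476 of them lower. With a variance that follows intensity they were 6, 4 of them lower, beside 1518 of 12458, 723 of them lower. The count of all called genes was 6 in the main fit. It was 7 with arrays centred on their medians and 7 with no filter on low values. With a variance that follows intensity it was 136, and with the replicate block it was 2. Leaving out 1 pool leaves a genotype with 1 array, so calls are not given for those fits. The pool numbers did not pair the samples (r = -0.037 across genes between deviations of same-numbered pools, which are not independent replicates), and the block changed no call among the cholesterol genes.

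The median difference of the 24 genes was -0.15, or -0.19 with arrays centred on their medians and -0.1 with probe set means. It was -0.04 with the stricter filter, which left 21 of them, and -0.25 to -0.16 without 1 pool. Genes lower in KO without overlap numbered 11, beside 17% to 21.8% of all tested genes in these settings. With the stricter filter they numbered 10 of 21, beside 22.1%. They numbered 12 to 16 without 1 pool, beside 30.5% to 38.4% of all tested genes, since fewer values have to separate. Genes higher numbered 5 in the main fit, beside 22.2%. They numbered 4 with arrays centred, beside 18.2%, and 6 with quantile normalization, beside 21.8%. Without 1 pool they numbered 5 to 9, beside 34.4% to 39.8%. Of the 24 genes, 15 kept their sign in all 12 alternatives and Mvk in the 11 that tested it; the stricter filter left out Mvk, Mvd and Sqle. With quantile normalization Fdps was at -0.02, Lss at -0.04, Cyp51 at -0.06, Sc5d at 0.04 and Npc2 at 0.04, and with arrays centred on their medians Fdps was at -0.02, Lss at -0.02 and Cyp51 at -0.03. Without 1 pool Mvd lay between -0.52 and 0.04, Fdps between -0.15 and 0.21, Fdft1 between -0.05 and 0.14, Sqle between -0.42 and 0.25, Lss between -0.31 and 0.37, Cyp51 between -0.45 and 0.48, Sc5d between -0.15 and 0.06 and Npc2 between -0.09 and 0.04. The cause of these shifts was not tested. Nrg4 stayed lower in KO in all settings.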
